A study of Mus musculus with 12 samples.

Results

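Ezh2-null myeloid progenitors were compared with wild-type progenitors before differentiation, gene by gene, on 4 of the 12 arrays of the series, 2 per genotype. The 4 arrays were chosen by their sample titles, and the Ezh2-null minus wild-type difference was taken for each of 65956 transcript clusters, with control probe sets left out. Both genotypes were bone marrow cells of C57BL/6 littermate mice, transduced with HOXB8 fused to the ligand-binding domain of the estrogen receptor (HoxB8-ER) and kept in 0.5 µM estradiol, so the forced HOXB8 activity was common to both. The wild-type arrays are titled HoxB8-ER and the others Ezh2-/- HoxB8-ER. The remaining groups, used here only beside this comparison, were neutrophils of each genotype 6 days after estradiol was removed and wild-type neutrophils given the EZH2 inhibitor GSK343 or its vehicle, 2 arrays each. The labels do not give the number of independent lines or cultures, so genotype cannot be told apart from cell line, and every p-value rests on the differences among arrays alone, which may be technical.

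EZH2 is the main catalytic subunit of Polycomb repressive complex 2 (PRC2), which methylates lysine 27 of histone H3 and keeps developmental genes silent, above all at promoters rich in CpG dinucleotides. Polycomb repressive complex 1 (PRC1) binds that mark and adds its own to histone H2A. HoxB8-ER cells are dividing promyelocyte-like progenitors, the stage at which the granulocyte lineage makes its primary granule proteins, and they are held there for as long as estradiol keeps the HOXB8 fusion active.

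The 4 arrays had medians of 4.54 to 4.59 on the log2 scale of the deposited signals. Across clusters the wild-type arrays correlated with each other at r = 0.9944, the Ezh2-null arrays at 0.9843, and arrays of different genotype at 0.9804 to 0.9825, so the Ezh2-null arrays stood almost as far from each other as from wild type. They differed from each other by 2-fold or more at 1420 genes (4.62%), against 251 genes (0.816%) for the wild-type pair. The background limit of an array, below which 95% of its 23 antigenomic control probe sets lay, was 5.50 and 5.38 on the wild-type arrays and 5.79 and 5.33 on the Ezh2-null arrays. Of genes that mark early myeloid cells, Mpo and Cd34 were bright in both genotypes, while 4 of 13 primary granule genes, described below, were called lower in Ezh2-null cells. Mpo, the primary granule peroxidase, gave 17.71 and 17.45 in wild type and 17.16 and 16.79 in Ezh2-null cells, and the progenitor surface gene Cd34 gave 16.85 and 16.76 against 16.97 and 16.72. Camp, a secondary granule gene of later stages, stayed near background at 5.25 to 5.87. Other such genes did not. Of 31 secondary and gelatinase granule genes, 18 were above background on both arrays of either genotype, among them Mmp8 at 12.48 and 11.55 in wild type. Xist was under background on all 4 arrays (4.41 to 4.61) and the Y-linked gene Eif2s3y well above it (10.12 to 10.62), so both genotypes carried Y-linked RNA.

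Ezh2 itself gave 11.57 and 11.65 in wild type and 9.10 and 9.44 in Ezh2-null cells, a log2 difference of -2.34 (SE 0.155, limma adjusted p = 5.5e-05). Both Ezh2-null arrays lay below both wild-type arrays yet far above background. The labels do not say which part of the gene was deleted, and this cluster summarises the whole transcript, so a remaining signal does not contradict them. Of the 12 measured PRC2 genes, 1 was called higher and, with Ezh2, 1 lower. Phf19, an accessory subunit that binds methylated histone H3, rose from 7.24 and 7.44 to 8.81 and 8.31 (1.22, SE 0.167, adjusted p = 0.00408). The paralogous methyltransferase gene Ezh1 (difference 0.02, adjusted p = 0.987) and the core subunit genes Eed (0.15, adjusted p = 0.876) and Suz12 (0.03, adjusted p = 0.975) did not pass the test.

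A cluster or gene was called when its limma adjusted p (Benjamini-Hochberg, over all clusters) was under 0.05. Of the 65956 clusters, 1087 were called higher in Ezh2-null cells (1.65%) and 882 lower (1.34%). Among the 30743 genes with a cluster of 1 symbol, 822 were called higher (2.67%) and 535 lower (1.74%), of which 531 and 380 differed by 2-fold or more. The 33206 clusters without a symbol held 225 higher and 307 lower calls. Over all genes the median log2 difference was 0.01. The deposited signals had nearly the same median on each array, so a shift common to most genes could not be seen this way. Differences above 3 log2 units were equally frequent in both directions, at 71 genes each. With 2 arrays against 2, an exact permutation test of a single gene cannot give a p below 0.333. The calls rest on a spread shared across genes and groups. Part of the 822 rises and of the 535 falls was lost in each fit without 1 array, also where the total rose. Leaving out wild-type array 1 left 429 higher and 267 lower genes, and leaving out wild-type array 2 left 468 and 287, while leaving out Ezh2-null array 1 gave 1008 and 810 and leaving out Ezh2-null array 2 gave 945 and 473. Each gene said below to have risen or fallen kept its call in each of these 4 fits, except where a loss is given or where a gene is said to have been singled out after its values were seen. On the 4 undifferentiated arrays alone, 97 of the 160 genes named by rule were no longer called. Of these, 44 had held in all of the fits without 1 array (limma adjusted p from 0.0519 to 0.225 on the 4 arrays). Among the genes below those 44 included Phf19, Cited1, Clu, Stfa2l1, Ms4a3, Serpinb10, Efna5, Id2, Znrf3, Jag2, Epha7, Nkx2-3, Pax6, Hoxc4, Bmi1, Phc1, Hlf, Bcl11a, Vdr, Mycn, Clec12a, Clec4d, Trem3, Tlr4, Il1rap, Il27ra, Tnfrsf1b, Ifnar2, Itgb2, Itgam, Itga9, Hpgd, Thy1, Nid2, Prss34, Rag2 and Cd79b.

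Genes called higher lay at background in their dimmer genotype more often than genes called lower did, but not more often than all genes. Of the 822 genes called higher, 400 (48.7%) lay at or under background on both wild-type arrays, and 231 of those were above background on both Ezh2-null arrays. Of the 535 genes called lower, 111 (20.7%) lay at or under background on both Ezh2-null arrays, and 79 of those were above it on both wild-type arrays. Over all genes the corresponding shares were 55.8% on the wild-type arrays and 54.6% on the Ezh2-null arrays. Taking the median of 5222 negative control probe sets as the limit in place of the antigenomic controls gave 483 genes called higher and 107 called lower, of which 273 and 48 were above that limit on both arrays of the brighter genotype, with shares over all genes of 60.8% and 55.0%. For a gene that was no brighter than background on both arrays of its dimmer group, the fold is given as "at least", with the antigenomic background standing in for the dimmer level, and any log2 difference beside it is the fitted one. With the negative control limit in its place the bounds were lower, at 137-fold for Angptl7, 27.7-fold for Cited1, 21.9-fold for Ryk and 20.5-fold for Tbx15, and none was left for Twist1, Pax6, Hoxc10, Nid2 or Rab27b.

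The largest rise was that of Angptl7, which encodes a secreted angiopoietin-like protein. Angptl7 gave 4.29 and 4.41 in wild type, under background, and 12.96 and 13.32 in Ezh2-null cells. The groups were therefore separated by the distance between background and a strongly expressed gene, at least 208-fold (log2 difference 8.79, SE 0.154, adjusted p = 2.19e-08). Smo, the transmembrane signal transducer of the Hedgehog pathway, was already above background in wild type at 7.05 and 7.09 and reached 13.18 and 13.38 (6.21, SE 0.138, adjusted p = 9.42e-08). Arrays of the same genotype were close to each other, with no overlap between genotypes. Ryk, a Wnt receptor with an inactive kinase domain, went from 5.07 and 4.96 to 10.15 and 10.82, at least 33.1-fold (adjusted p = 5.29e-06). Tbx15, a T-box transcription factor of skeletal development, went from 4.90 and 5.17 to 10.01 and 10.77, at least 30.9-fold (adjusted p = 7.49e-06). Both genes thus moved from background on each wild-type array to clear signal on each Ezh2-null array.

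The rest of the 20 largest rises with a gene name spanned transcriptional, membrane and transport proteins. Cited1, a co-activator that binds CBP and p300, rose at least 41.9-fold, from 5.08 and 4.98 to 11.74 and 9.92. Its Ezh2-null arrays differed by more than those of most of the other genes, though both stayed far above wild type. Gphn, the gephyrin scaffold of inhibitory synapses, rose from 6.42 and 5.85 to 11.14 and 11.35 (5.11), and Spire1, an actin nucleator, from 5.40 and 5.77 to 10.31 and 10.37 (4.76). Ncam1, the neural cell adhesion molecule, rose at least 14.0-fold, from 4.80 and 4.85 to 9.12 and 9.37. For Gphn, Spire1 and Ncam1 the Ezh2-null arrays were close to each other. The transporter genes Slc35f2 (at least 14.8-fold), Slc16a12 (at least 11.1-fold) and the zinc exporter gene Slc30a4 (at least 11.6-fold) rose as well, as did the lysosomal membrane gene Laptm4b (at least 14.1-fold). Golm2 (5.90), Spats2 (at least 40.8-fold), the guanylate cyclase subunit gene Gucy1a2 (at least 9.55-fold) and the scavenger receptor gene Scara3 (at least 8.51-fold) completed the group with Eng and Bmpr1a, described below. Clu, the secreted chaperone clusterin, gave 9.75 and 7.97 in Ezh2-null cells against 4.17 and 4.26, and Stfa2l1, a stefin A protease inhibitor, 10.60 and 7.86 against 4.60 and 4.14. For these last genes Ezh2-null array 1 was well above array 2, and Stfa2l1 belongs to a cluster of near-identical stefin genes whose probes may not tell them apart.

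**Figure D1:**
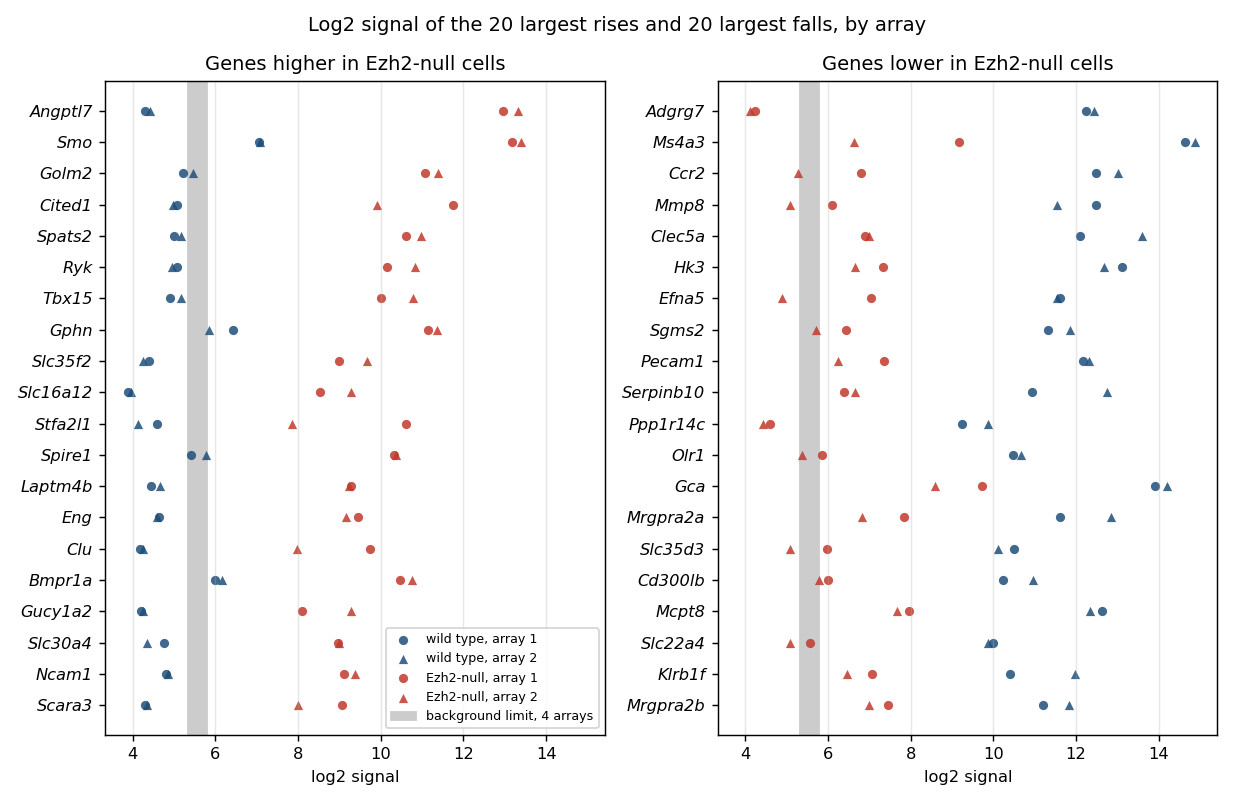
Log2 signal (horizontal axis) of the 20 genes with the largest called rise (left) and the 20 with the largest called fall (right), by array; circles are array 1 and triangles array 2, blue wild type and red Ezh2-null, and the grey band spans the background limits of the 4 arrays, 5.33 to 5.79. The wild-type arrays of most rising genes lie at or under the band, from 3.89 in Slc16a12 to 7.09 in Smo, while the Ezh2-null arrays of falling genes range from 4.12 in Adgrg7 to 9.72 in Gca.

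The largest fall was that of Adgrg7, an adhesion-class G protein-coupled receptor gene. Adgrg7 gave 12.23 and 12.44 in wild type and 4.23 and 4.12 in Ezh2-null cells, under background on both arrays. The gene went from a strong signal to none above background, at least 110-fold (log2 difference -8.16, SE 0.173, adjusted p = 8.16e-08). Ms4a3, a membrane protein gene characteristic of granulocyte and monocyte progenitors, gave 14.64 and 14.87 in wild type and 9.16 and 6.62 in Ezh2-null cells (-6.86, SE 0.694, adjusted p = 0.000655). Ccr2, the receptor for the monocyte chemokine CCL2, gave 12.48 and 13.01 against 6.79 and 5.28 (-6.71, SE 0.898, adjusted p = 0.00364). Both genes fell on each Ezh2-null array, array 2 the further. Mmp8, the neutrophil collagenase, went from 12.48 and 11.55 to 6.10 and 5.08 (-6.43, adjusted p = 0.000108). Clec5a, a myeloid C-type lectin receptor, went from 12.09 and 13.60 to 6.89 and 6.98 (-5.91, adjusted p = 0.000317).

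Several further falls were of genes that act in leukocytes. Hk3, the hexokinase of myeloid cells, fell from 13.10 and 12.68 to 7.33 and 6.65 (-5.90, adjusted p = 3.17e-05), and Pecam1, the adhesion molecule CD31, from 12.16 and 12.32 to 7.35 and 6.23 (-5.45, adjusted p = 1.63e-05). Gca, the granulocyte calcium-binding protein grancalcin, fell from 13.90 and 14.20 to 9.72 and 8.6 (-4.89). Even the higher Ezh2-null array lay more than 4 log2 units under wild type for each of these genes. Sgms2, a sphingomyelin synthase gene, fell by 5.51, the serpin gene Serpinb10 by 5.33, the oxidised LDL receptor gene Olr1 by 4.96, the organic cation transporter gene Slc22a4 at least 20.6-fold and the phosphatase inhibitor gene Ppp1r14c at least 15.9-fold. Efna5, an ephrin ligand, fell from 11.62 and 11.53 to 7.05 and 4.89 (-5.61, adjusted p = 0.000437). Mrgpra2a and Mrgpra2b, near-identical Mas-related receptor genes that probes may not tell apart, fell by 4.89 and 4.31, and the call of Mrgpra2a was lost without wild-type array 2 (adjusted p = 0.0509).

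The promoters of the genes that rose from background were rich in CpG for silent genes. This was measured in RefSeq windows of 300 bases, 250 before and 50 after each start, for protein-coding genes, of which 15555 of 19187 had a window, as had 600 of the 749 called higher and 389 of the 471 called lower. The 287 genes called higher from background on both wild-type arrays had a median observed-to-expected CpG ratio of 0.703 and a median of 20 CpGs, against 0.29 and 5 for all 7909 genes at background in wild type. A ratio of 0.6 or more was held by 65.9% of the former and 25.4% of the latter. The 7696 genes above background in either genotype had a median ratio of 0.791, all genes called higher 0.732 and those called lower 0.648, with 0.575 for genes lower by 2-fold or more. These are descriptions without a test, and CpG content and expression vary together over all genes.

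**Figure D2:**
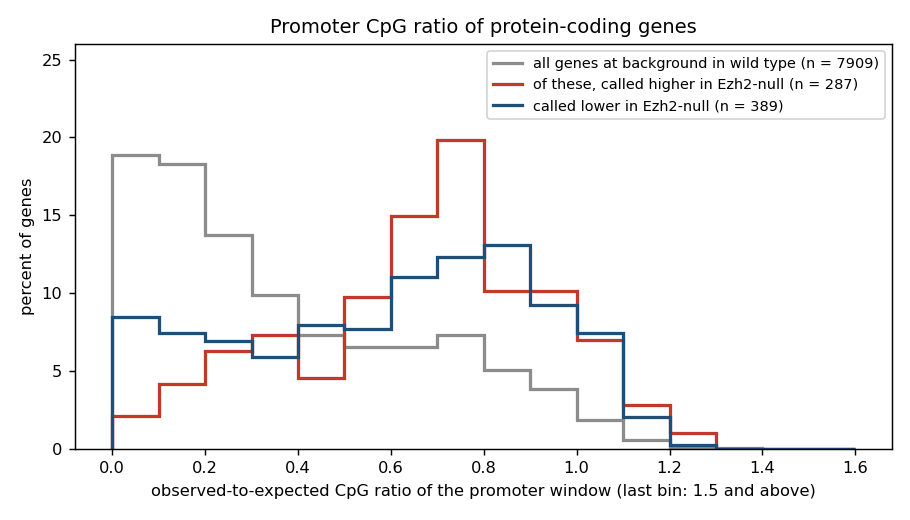
Share of genes (vertical axis, percent) by observed-to-expected CpG ratio of the promoter window (horizontal axis, bins of 0.1), for all 7909 protein-coding genes at background on both wild-type arrays (grey), the 287 of them called higher in Ezh2-null cells (red) and the 389 called lower (blue). The medians are 0.29 for the grey and 0.703 for the red outline, and 25.4% and 65.9% of these genes have a ratio of 0.6 or more.

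Promoters of 3 named genes show the range, from RefSeq (build GRCm38.p6) and printed 5′ to 3′ on the gene's strand. Ryk (chr9:102834670-102834969, plus strand) has 42 CpGs and a ratio of 1.27, the type most frequent among the genes that rose from background, and Angptl7 (chr4:148500413-148500712, minus strand), the largest rise, has 4 and a ratio of 0.20. CpGs are in capitals in both.
Ryk: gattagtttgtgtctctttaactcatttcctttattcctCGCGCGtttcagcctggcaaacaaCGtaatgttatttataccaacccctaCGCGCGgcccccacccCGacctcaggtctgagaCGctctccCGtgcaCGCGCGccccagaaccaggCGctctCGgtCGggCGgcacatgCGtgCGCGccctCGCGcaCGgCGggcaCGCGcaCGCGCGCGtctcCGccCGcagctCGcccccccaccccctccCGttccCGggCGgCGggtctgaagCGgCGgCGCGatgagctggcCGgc
Angptl7: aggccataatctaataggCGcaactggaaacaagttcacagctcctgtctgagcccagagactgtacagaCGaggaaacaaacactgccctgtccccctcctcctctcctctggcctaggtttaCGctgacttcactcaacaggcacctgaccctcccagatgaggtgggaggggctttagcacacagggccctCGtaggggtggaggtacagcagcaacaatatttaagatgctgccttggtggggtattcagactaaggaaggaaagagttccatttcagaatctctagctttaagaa
Ms4a3 (chr19:11640802-11641101, minus strand), the second largest fall, has 0 CpGs, and the capitals there mark adjoining matches to letters bound by the myeloid factors PU.1 (GAGGAA) and C/EBP (TTGCNNAA).
Ms4a3: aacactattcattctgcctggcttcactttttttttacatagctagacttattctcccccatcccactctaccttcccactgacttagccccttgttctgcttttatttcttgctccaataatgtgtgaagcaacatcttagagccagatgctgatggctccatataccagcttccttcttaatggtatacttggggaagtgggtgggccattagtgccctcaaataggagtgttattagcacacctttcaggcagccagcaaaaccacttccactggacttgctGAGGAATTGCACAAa
In Ms4a3 the PU.1 letters begin 36 bases and the C/EBP letters 42 bases from the start, counting the start as 1, and they do not overlap. Among the 20 largest rises 14 genes had a window, 8 of them with a ratio of 0.6 or more, and among the 20 largest falls 19 had one, 4 of them with such a ratio. The PU.1 letters stood in 10 of those 14 and 11 of those 19 windows, and in the printed windows they also begin at -216 in Ryk, on the reverse strand, and at -179 in Angptl7. Searched on both strands, GAGGAA was found in 27.1% of all windows, 29.3% of those called higher, 34.7% of those called lower and 39.5% of those lower by 2-fold or more. TTGCNNAA stood in 10.1% of all windows and 8.48% of those called lower, the RUNX letters TGTGGT in 14.7% and 16.7%, and the GATA letters AGATAA in 9.84% and 7.46%. A match is only a stretch of letters, and binding was not measured.

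Receptors and transducers of developmental signalling pathways were among the genes that rose. In the BMP and TGF-beta pathway 8 of 38 measured genes were called higher and 0 lower, with a list median of 0.09. Over all genes the shares called were 2.67% higher and 1.74% lower, here and for the lists below. An unadjusted limma p under 0.05 was held by 14 of 38. Such unadjusted counts are given without a share over all genes, so they cannot be judged against it. Eng, the co-receptor endoglin, gave 4.64 and 4.60 in wild type and 9.44 and 9.16 in Ezh2-null cells, at least 14.5-fold (adjusted p = 1.07e-06). Bmpr1a, a type I BMP receptor, gave 5.99 and 6.16 against 10.46 and 10.75 (4.53, SE 0.342, adjusted p = 0.00012). The Ezh2-null arrays of both genes lay more than 4 log2 units above wild type. The type II receptor gene Acvr2a (at least 2.11-fold, adjusted p = 0.000575), the signal-carrying Smad1 (at least 2.43-fold, adjusted p = 6.97e-05) and the target gene Id2 (at least 3.57-fold, adjusted p = 0.000939) were higher as well. Tgfbr3, the co-receptor betaglycan, was at least 1.66-fold higher but lost its call without either wild-type array (adjusted p = 0.0631 and 0.052). Between 6 and 9 of the 38 were called higher in the fits without 1 array.

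In the Wnt list 6 of 54 genes were called higher and 1 lower (median 0.03). Beside Ryk these were the receptor genes Fzd3, from 4.14 and 3.93 to 7.0 and 7.21 (at least 3.17-fold, adjusted p = 4.02e-06), and Fzd6, from 5.29 and 5.22 to 7.21 and 7.20 (at least 3.4-fold, adjusted p = 3.83e-05). Ptk7, a further kinase-dead Wnt receptor, went from 4.93 and 4.98 to 8.19 and 8.68 (at least 7.98-fold, adjusted p = 6.42e-06). In all of them the wild-type arrays were under background and the Ezh2-null arrays above it. Znrf3, the ubiquitin ligase that removes Wnt receptors, rose by 1.14 (adjusted p = 0.00413). Fzd4 (1.46) lost its call without either wild-type array (adjusted p = 0.14 and 0.127), and Axin1 (-0.93), a scaffold of the beta-catenin destruction complex, without wild-type array 1 (adjusted p = 0.0513).

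Of 18 Hedgehog genes, 3 were called higher and 0 lower (median 0.06; 5 with unadjusted p under 0.05), and of these Smo alone reached a signal above background. Gpr161 stayed at or under background on all 4 arrays and lost its call without wild-type array 1 (adjusted p = 0.0572). Cdon, a co-receptor, likewise stayed at or under background in both genotypes and lost its call without either wild-type array or Ezh2-null array 1 (adjusted p = 0.24, 0.171 and 0.0669). The ligand genes Shh (-0.14, adjusted p = 0.793), Ihh (-0.03, adjusted p = 0.983) and Dhh (0.07, adjusted p = 0.941) stayed under background, as did the target Gli1 (-0.01, adjusted p = 0.992). The target and receptor gene Ptch1 gave 9.90 and 9.91 against 9.94 and 10.11 (0.12, adjusted p = 0.869). In other guidance families, the neuropilin gene Nrp2 rose from 4.65 and 4.61 to 7.68 and 7.61 (at least 4.6-fold, adjusted p = 0.00043) and the Notch ligand gene Jag2 by 1.27 (adjusted p = 0.000282), while the ephrin receptor gene Epha7 fell from 9.15 and 9.06 to 7.40 and 6.13 (-2.34, adjusted p = 0.00408).

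Transcription factors of development rose in a small part of their list, 8 of 101 measured genes with 0 lower (11 with unadjusted p under 0.05, median 0.01), of which 5 to 7 were called without 1 array. After Tbx15, the pioneer factor gene Foxa1 rose from 4.60 and 4.65 to 8.73 and 7.97, at least 7.51-fold (adjusted p = 2.76e-05). Twist1, a mesoderm factor, rose from 3.69 and 3.64 to 5.71 and 5.49 (at least 1.12-fold, adjusted p = 5.06e-05), and Nkx2-3, of spleen and gut mesoderm, from 5.15 and 5.15 to 6.35 and 6.57 (at least 2.03-fold, adjusted p = 0.000398). Foxa1 reached clear signal, whereas Twist1 was above background on Ezh2-null array 2 alone. The same held for Pax6, of eye and brain, which rose at least 1.34-fold (adjusted p = 0.00056). Among 33 HOX genes 3 were called higher and 0 lower (8 with unadjusted p under 0.05, median 0.05), and all lay in the HoxC cluster. Hoxc10 gave 3.46 and 3.84 against 6.16 and 5.80 (at least 1.45-fold, adjusted p = 0.000175) and Hoxc4 4.69 and 5.03 against 6.23 and 6.34 (at least 1.79-fold, adjusted p = 0.00216). Hoxc6 (adjusted p = 0.0474) was under background on all 4 arrays and lost its call without each of the 4 arrays in turn (adjusted p = 0.288, 0.133, 0.127 and 0.0791). Endogenous Hoxb8 gave 5.48 and 5.66 against 5.48 and 5.54, near background in both genotypes.

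Genes of the fetal blood program and growth control moved as well. Plag1, a zinc-finger proto-oncogene, rose from 5.45 and 5.50 to 9.12 and 10.07 (4.12, SE 0.259, adjusted p = 3.93e-05). Lin28b, which blocks let-7 microRNA maturation and marks fetal haematopoiesis, gave 4.24 and 4.31 in wild type and 8.0 on both Ezh2-null arrays, at least 5.89-fold (adjusted p = 7.26e-06). Both were separated from wild type by more than 3 log2 units on each array. Hmga2, a let-7 target and chromatin protein, gave 9.90 and 9.69 against 11.14 and 11.79 (1.67), a call lost without either wild-type array or Ezh2-null array 2 (adjusted p = 0.1, 0.138 and 0.0753). These were the 3 called of 12 fetal genes, with 0 lower (4 with unadjusted p under 0.05). Cdkn2a, whose products p16INK4a and p19ARF restrain the cell cycle and which is a classic Polycomb target, gave 7.49 and 7.61 against 8.94 and 9.25 (1.55, adjusted p = 0.00471; 0.0512 without wild-type array 1). It was the only one of 8 CDK inhibitor genes called. The imprinted gene Sfmbt2, itself a Polycomb-type protein gene, rose from 6.43 and 6.30 to 9.95 and 10.06 (3.64, SE 0.171, adjusted p = 7.39e-06). In PRC1, 3 of 18 genes were called higher and 0 lower, led by the ring-finger subunit gene Bmi1, from 10.74 and 11.02 to 12.43 and 12.74 (1.71, SE 0.17, adjusted p = 0.000612), and the polyhomeotic gene Phc1 (0.94, adjusted p = 0.00424). Scmh1 (0.86) lost its call without wild-type array 2 and without Ezh2-null array 1 (adjusted p = 0.119 and 0.0724).

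The granule gene lists held calls in both directions. All rises were in the secondary and gelatinase list, and each lost its call without at least 1 array. Of 13 primary granule genes, made at the promyelocyte stage, 4 were called lower and 0 higher (median -0.76). The neutral serine protease gene Prss57 gave 9.78 and 9.74 in wild type and 7.99 and 7.62 in Ezh2-null cells (-1.96, SE 0.195, adjusted p = 0.000605). Elane, neutrophil elastase, gave 10.93 and 9.5 against 7.45 and 5.86 (-3.56, adjusted p = 0.00659; 0.051 without wild-type array 1). Ctsg, cathepsin G, gave 16.14 and 16.31 against 13.57 and 10.87 (-4.0, adjusted p = 0.0131), and its call was lost without either wild-type array (adjusted p = 0.0873 and 0.0946), with a difference of -5.35 without Ezh2-null array 1 and -2.65 without array 2. With Ms4a3 these were the 4. Mpo (-0.61, adjusted p = 0.809) and the proteinase 3 gene Prtn3 (-0.94, adjusted p = 0.504) did not pass the test. For the primary granule genes the Ezh2-null arrays differed from each other, array 1 lying above array 2 by a median of 0.70.

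The list of secondary and gelatinase granule genes also held calprotectin and stefin genes. Of its 31 measured genes, 4 were called higher and 3 lower (median 0.08). Beside Mmp8 the lower genes were Anxa1, annexin A1, from 12.44 and 12.60 to 10.54 and 10.48 (-2.01, adjusted p = 0.00219), and the heparanase gene Hpse (at least 2.2-fold), whose call was lost without either wild-type array or Ezh2-null array 2 (adjusted p = 0.153, 0.068 and 0.0621). The higher genes were S100a9, a calprotectin subunit, at 6.00 and 5.49 against 10.56 and 8.24, lactoferrin (Ltf) at 4.79 and 4.88 against 7.68 and 6.41, and the stefins Stfa1 and Stfa2. In each of them Ezh2-null array 1 was above array 2, and the list's median gap between those arrays was 0.57. The calls of Ltf (at least 3.04-fold), S100a9 (3.66) and Stfa1 (5.05-fold or more) were lost without either wild-type array (adjusted p from 0.0565 to 0.117), and that of Stfa2 (at least 4.62-fold) without wild-type array 1 (adjusted p = 0.153). Over the 4 fits without 1 array the number called higher in this list ran from 0 to 8, and the number called lower from 2 to 4.

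Regulators of the myeloid and stem cell programs were changed in part. Hlf, a transcription factor of haematopoietic stem cells, rose from 10.12 and 9.98 to 12.46 and 13.22 (2.79, SE 0.244, adjusted p = 0.000292), and Bcl11a, a lymphoid and fetal-globin regulator, from 5.18 and 5.25 to 7.09 and 8.12 (at least 4.48-fold, adjusted p = 0.00178). Both Ezh2-null arrays were above wild type, array 2 the more so. Vdr, the vitamin D receptor gene, rose from 5.03 and 4.78 to 7.91 and 7.08 (at least 4.15-fold, adjusted p = 0.000334). Mycn fell from 5.98 and 5.99 to 5.03 and 4.77, at least 1.34-fold (adjusted p = 0.00122). Cebpa, the factor that starts granulocyte commitment, gave 12.94 and 12.86 against 11.19 and 11.35 (-1.63, adjusted p = 0.0146), a call lost without either wild-type array and, at the threshold, without Ezh2-null array 1 (adjusted p = 0.111, 0.0857 and 0.05). Its groups did not overlap and its difference stayed between -1.71 and -1.55. Gata2, of stem and mast cells, gave 10.05 and 9.89 against 11.07 and 11.93 (1.53), a call lost without either wild-type array or Ezh2-null array 2 (adjusted p = 0.156, 0.186 and 0.101). The stem and progenitor list had 6 higher and 3 lower of 33 (median 0.05) and the myeloid factor list 5 higher and 1 lower of 34 (median 0.10). Myb (0.10, adjusted p = 0.961), Gfi1 (-0.66, adjusted p = 0.602) and Kit (1.04, adjusted p = 0.0725) did not pass the test.

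Of 29 C-type lectin receptors 6 were called lower and 1 higher, and the 6 held in number in each fit without 1 array. Clec12a, an inhibitory receptor, went from 11.61 and 12.09 to 8.99 and 7.49 (-3.61, adjusted p = 0.00263), Clec4d from 11.40 and 12.54 to 9.17 and 8.52 (-3.13, adjusted p = 0.00349), and Clec7a, the beta-glucan receptor dectin-1, from 5.73 and 5.97 to 3.80 and 3.92 (at least 1.22-fold, adjusted p = 0.00146). Clec11a, a secreted stem cell growth factor, moved the other way, from 4.62 and 4.83 to 7.57 and 7.11 (at least 3.73-fold, adjusted p = 6.71e-05). Tyrobp, the DAP12 adaptor through which Clec5a and many paired receptors signal, gave 12.74 and 12.52 against 9.69 and 9.16 (-3.21, SE 0.196, adjusted p = 3.39e-05). Tyrobp and Clec5a were thus both lower on each Ezh2-null array. Tyrobp was among 6 lower and 0 higher of 28 Siglec, CD300 and paired receptors, with the activating receptor gene Cd300lb (-4.70, adjusted p = 4.45e-05) and Trem3 (-3.81, adjusted p = 0.00175). Trem1 (-3.07) lost its call without either wild-type array or Ezh2-null array 2 (adjusted p = 0.114, 0.116 and 0.0686). Of 17 Ms4a genes, Ms4a3 and Ms4a6c (-3.12, adjusted p = 0.00131) were lower and 0 higher.

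Innate sensors split. Tlr4, the lipopolysaccharide receptor, fell from 8.92 and 9.77 to 7.18 and 6.14 (-2.69, adjusted p = 0.00359), while Ly96, which encodes its partner MD-2, rose from 11.45 and 11.78 to 13.85 and 14.07 (2.35, SE 0.197, adjusted p = 0.000231). The groups did not overlap for either gene of this receptor pair. Aim2, the cytosolic DNA sensor, fell from 10.93 and 11.12 to 7.46 and 7.57 (-3.51, SE 0.117, adjusted p = 1.18e-06). The interferon-induced GTPase gene Mx2 rose from 4.80 and 5.17 to 8.37 and 9.21 (at least 10.2-fold, adjusted p = 0.000322), although only 1 of 33 interferon-stimulated genes was called higher and 1 lower (median -0.03). Among 29 chemokine and chemoattractant receptors 3 were lower and 0 higher: Ccr2, the sphingosine 1-phosphate receptor gene S1pr3 (at least 2.13-fold, adjusted p = 0.000119) and Cxcr4 (-2.16), whose call was lost without either wild-type array or Ezh2-null array 2 (adjusted p = 0.147, 0.0964 and 0.0719). Of 49 cytokine receptors 5 were higher and 5 lower. Il1rap, the shared subunit of interleukin 1 family receptors, rose by 2.41 (adjusted p = 0.00172) and Il27ra at least 2.18-fold (adjusted p = 0.000155), and Tnfrsf1b (-1.61, adjusted p = 0.00416) and the interferon receptor gene Ifnar2 (-0.97, adjusted p = 0.0016) fell.

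Integrins and adhesion genes showed 3 higher and 3 lower of 51. The integrin chains of the leukocyte receptor Mac-1 moved apart: Itgb2, the common beta chain, rose from 10.79 and 11.05 to 12.38 and 12.13 (1.34, adjusted p = 0.0037), and Itgam, the alpha chain, fell from 10.80 and 10.15 to 9.05 and 8.39 (-1.76, adjusted p = 0.00494). Itga9 rose by 1.89 (adjusted p = 0.00124). In metabolism, the glucose transporter gene Slc2a3 rose from 7.20 and 7.05 to 10.74 and 11 (3.75, SE 0.35, adjusted p = 0.000419), against the fall of Hk3. Both are genes of glucose uptake and its first step, in a list with 2 higher and 1 lower of 25. Of the eicosanoid genes, Hpgd, which degrades prostaglandins, fell from 8.06 and 7.30 to 4.84 and 4.67, at least 4.35-fold (adjusted p = 0.000152).

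Some programs gave no call. None of 33 cell cycle genes passed (2 with unadjusted limma p under 0.05, median -0.16), with Mki67 at 16.21 and 15.80 against 15.87 and 15.42 (-0.36, adjusted p = 0.811). Ezh2-null array 1 was above array 2 by a median of 0.81 on these genes, and up to 4 were called lower in a fit without 1 array. On 19 sterol synthesis genes, also without a call (0 with unadjusted p under 0.05), that gap was 1.77, so the Ezh2-null arrays were unlike each other there. The 10 Schlafen genes (0 with unadjusted p under 0.05) and 18 BCL2 family genes (2 with unadjusted p under 0.05) gave no call either. Over all genes 4.41% were called, so lists this short may hold none without differing from other genes. No share over all genes stands beside the counts with unadjusted p under 0.05 in any list, so they cannot be judged against it.

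Smaller lists had few calls. Fcgrt, the neonatal Fc receptor gene, rose from 4.56 and 4.84 to 7.33 and 7.05 (at least 3.35-fold, adjusted p = 0.00131), and was the only one of 13 Fc receptor genes called higher, with 1 lower. Thy1, a surface protein of T cells and some progenitors, rose from 4.20 and 4.27 to 6.33 and 5.83 (at least 1.56-fold, adjusted p = 0.000569), and Nid2, a basement membrane protein gene, from 4.0 and 3.96 to 6.01 and 5.53 (at least 1.26-fold, adjusted p = 0.000288). Both moved from under background in wild type to just above it. Of 49 extracellular matrix genes 3 were higher and 3 lower, and of 37 imprinted genes 2 were higher and 0 lower (6 with unadjusted p under 0.05).

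**Figure D3:**
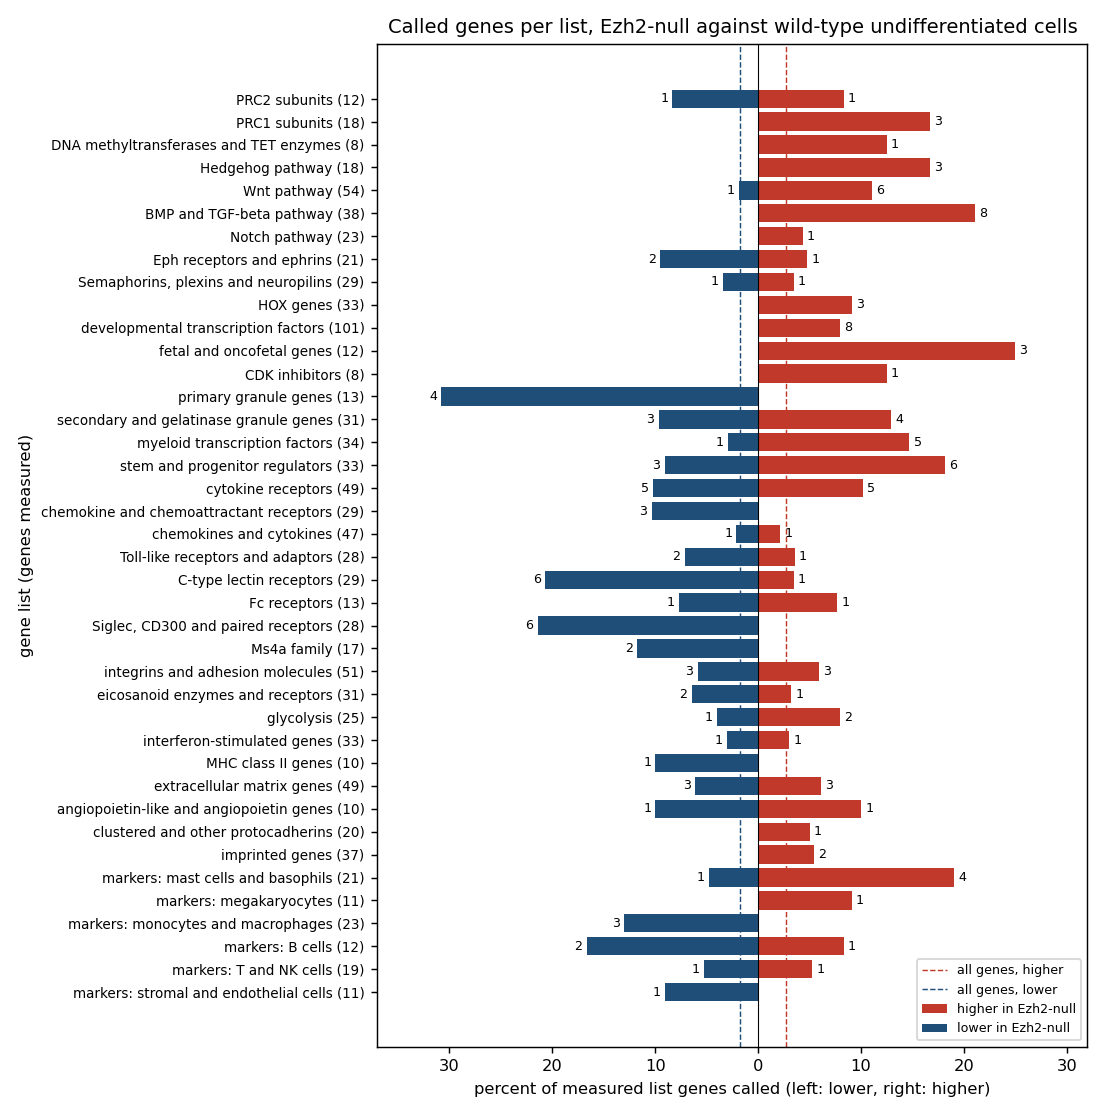
Percent of the measured genes of each list (horizontal axis; numbers of measured genes in brackets) called higher (red, right) or lower (blue, left) in Ezh2-null cells, with the number of called genes at the bar's end, for the lists with at least 1 call; 9 lists had none. Dashed lines are the shares over all genes, 2.67% higher and 1.74% lower; 8 of 38 BMP and TGF-beta genes were higher and 4 of 13 primary granule genes lower.

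Markers of other cell types were read to see what else the cultures held. Eosinophil (8 genes, 2 with unadjusted p under 0.05), erythroid (18 genes, 2) and dendritic cell markers (13 genes, 0) gave no call. Of 21 mast cell and basophil markers 4 were higher and 1 lower. Mcpt8, the basophil granzyme-like protease, gave 12.62 and 12.34 in wild type and 7.95 and 7.67 in Ezh2-null cells (-4.67, SE 0.152, adjusted p = 1.09e-06), and Prss34, a protease of the same cells, 8.99 and 8.23 against 11.14 and 11.75 (2.84, SE 0.329, adjusted p = 0.00155). These genes moved in opposite directions. Cpa3, the mast cell carboxypeptidase, was among the brightest genes in both genotypes, at 18.75 and 18.86 against 17.95 and 18.26 (-0.70, adjusted p = 0.189), while the tryptase Tpsb2 and chymase Cma1 were under background on all 4 arrays (4.42 to 5.25). Gzmb (at least 1.67-fold), Gata2 and Rab27b (at least 1.29-fold) made up the other rises and each lost its call without either wild-type array, Gzmb with adjusted p = 0.279 and 0.102 (and 0.111 without Ezh2-null array 2) and Rab27b with 0.0968 and 0.0507; over the 4 fits the list had 1 to 6 genes higher. The log2 of the summed signal of the mast cell and basophil markers was 18.87 and 18.96 in wild type and 18.16 and 18.58 in Ezh2-null cells.

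Of 23 monocyte and macrophage markers 3 were lower and 0 higher, and their log2 summed signal was 15.13 and 14.66 in wild type and 12.32 and 11.20 in Ezh2-null cells. Beside Ccr2, F13a1, a coagulation factor gene of monocytes, gave 14.26 and 13.65 against 11.31 and 10.20 (-3.20, adjusted p = 0.00597; 0.0654 without wild-type array 1), and Adgre1, encoding F4/80, 8.85 and 9.62 against 6.31 and 7.55 (-2.30), with its call lost without either wild-type array or Ezh2-null array 1 (adjusted p = 0.0995, 0.244 and 0.138). The receptor gene Csf1r was within 1 log2 unit of background on all 4 arrays (5.76 to 6.44), and the macrophage genes C1qa, C1qb, C1qc, Vcam1 and Marco were under it. In bulk RNA, fewer cells of a type and less RNA per cell cannot be told apart, and the part of these markers in the falls of Ccr2, Clec5a, Tlr4 and other receptors shared with monocytes was not tested. Of 12 B cell markers 1 was higher and 2 lower (median -0.02). Their log2 summed signal was 12.35 and 12.28 in wild type and 11.99 and 12.12 in Ezh2-null cells. The falls were those of Igll1, the surrogate light chain, from 7.75 and 7.96 to 4.13 and 3.69 (at least 4.91-fold, adjusted p = 3.62e-06), and Rag2, a recombinase gene, from 9.88 and 9.94 to 7.31 and 5.09 (-3.71, adjusted p = 0.00528). The B cell receptor component Cd79b rose from 5.97 and 5.85 to 8.26 and 7.62 (2.03, adjusted p = 0.000838). Megakaryocyte markers (11 genes, 1 higher and 0 lower) had a log2 summed signal of 9.34 and 9.28 in wild type and 12.18 and 10.68 in Ezh2-null cells, led by the platelet chemokine gene Pf4 at 7.02 and 6.81 against 11.71 and 9.61, which did not pass the test (3.74, adjusted p = 0.0974). That of T and NK cell markers (19 genes, 1 higher and 1 lower) was 11.10 and 10.94 against 9.62 and 8.72.

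The falls were not spread evenly over the genome. On mouse chromosome 17, 123 of 1355 measured genes were called lower (9.08%), against 0.779% to 2.01% of the genes on each of the other autosomes and X, and 18 were called higher. Chromosome 17 thus held 23.0% of all genes called lower. The shift was not limited to called genes: among the 526 chromosome 17 genes above background on all 12 arrays, 81.9% had a negative difference, against 42.3% of such genes on the other autosomes, and their median difference was -0.52, where the medians of the other autosomes lay between -0.01 and 0.12. Set against the wild-type arrays and the autosomal median, chromosome 17 stood at -0.59 on both Ezh2-null undifferentiated arrays and at -0.57 and -0.55 on the Ezh2-null neutrophil arrays, with the wild-type undifferentiated arrays at -0.01 and -0.07 and the wild-type neutrophils at -0.01 and 0.03. The GSK343 and vehicle arrays, from wild-type cells, lay between -0.12 and -0.08. All 4 Ezh2-null arrays were thus below every wild-type array. The shift ran along the chromosome, with medians from -0.80 to -0.43 in 10-megabase steps that each held 7 to 136 genes.

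Genes of chromosome 17 were a minority of the large falls. With them left out, a choice made after their values were seen, 412 genes were called lower and 804 higher, and 308 of the 380 falls of 2-fold or more remained. The median difference of the called falls was -1.09 on chromosome 17 and -1.48 elsewhere. Of the genes named above, Efna5, Ptk7, Axin1, Trem1, Trem3, Prss34 and Adgre1 lie on chromosome 17, and Ptk7 and Prss34 rose. So do the neighbouring antigen-processing genes Psmb9, Tap1, Psmb8 and Tap2, singled out after their values were seen as a run of adjacent falls with H2-Ob, an MHC class II gene whose own call was lost without wild-type array 2 (adjusted p = 0.0842). DNA copy number was not measured, and a difference between the cell lines cannot be told apart from an effect of genotype.

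**Figure D4:**
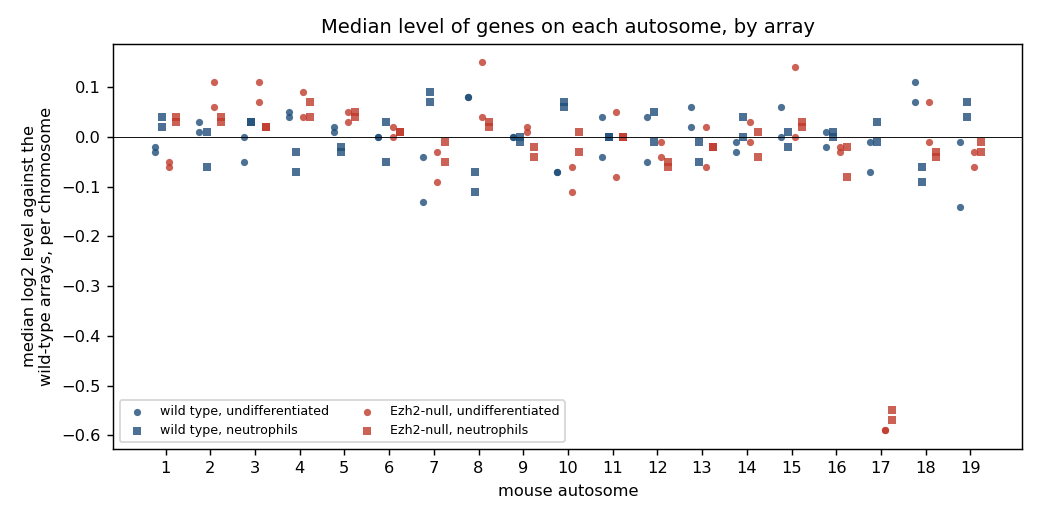
Median log2 level of the genes of each autosome on each of the 8 genotype arrays (vertical axis), taken against the mean of the wild-type arrays and less the median over autosomes, for genes above background on all 12 arrays; circles are undifferentiated cells, squares neutrophils, blue wild type, red Ezh2-null. Chromosome 17 lies between -0.59 and -0.55 on the 4 Ezh2-null arrays, and every other point lies between -0.14 and 0.15.

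The same genotype contrast was measured in neutrophils on arrays that it does not share with the progenitors. There 4455 clusters were called higher in Ezh2-null cells (6.75%) and 3336 lower (5.06%), or 3087 (10.0%) and 1962 (6.38%) of the 30743 genes. Of the 822 genes higher in undifferentiated cells, 385 (46.8%, and 12.5% of the neutrophil rises) were also higher in neutrophils and 23 were lower. Of the 535 lower genes, 222 (41.5%, and 11.3% of the neutrophil falls) were also lower and 33 were higher. Without chromosome 17 the share of falls called in both stages was 38.3%, and on chromosome 17 it was 52.0%. The median difference of the 822 genes was 1.24 in undifferentiated cells and 0.53 in neutrophils, and that of the 535 was -1.36 and -0.59. Since the genes were chosen for their size in undifferentiated cells, the smaller medians in neutrophils are in part a product of that choice.

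The difference between stages was tested as the interaction of genotype and stage, called at 2911 clusters (4.41%) and 2066 genes (6.72%), among them 315 of the 822 and 195 of the 535. Ryk and Tbx15 were called higher in both stages, with fitted differences of 4.48 (adjusted p = 7.97e-06) and 4.04 (adjusted p = 1.92e-05) in neutrophils. Their interactions of -1.0 (SE 0.334, adjusted p = 0.162) and -1.31 (SE 0.357, adjusted p = 0.0822) did not pass the test, which does not show equal rises. Sfmbt2 was also higher in neutrophils, by 3.06 (adjusted p = 1.09e-05), and Plag1 by 3.0 (adjusted p = 0.000127). Serpinb10 fell by 5.74 in neutrophils (adjusted p = 0.000156; interaction -0.41, adjusted p = 0.9). Angptl7, by contrast, gave 4.38 and 4.48 in wild-type and 4.81 and 4.54 in Ezh2-null neutrophils, under background on all 4, so its rise was seen in undifferentiated cells and not in neutrophils (interaction -8.55, adjusted p = 1.29e-07). Mmp8 (6.03, adjusted p = 0.00154) and Pecam1 (5.17, adjusted p = 0.000249) also differed between stages, with neutrophil differences of -0.39 and -0.28. Adgrg7 was under background on all 4 neutrophil arrays (3.90 to 5.03), so no fall could be seen there. Ezh2 itself was not lower in the neutrophils labelled Ezh2-null (0.55, adjusted p = 0.0501), so directions in neutrophils rest on the label.

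The 23 and 33 genes called in opposite directions at the 2 stages, 56 in all, are part of the 315 and 195. The interaction is the difference between the stages, so opposite calls all but fixed that it would be called. Mcpt8 fell by 4.67 in undifferentiated cells and gave 4.98 and 5.17 in wild-type against 11.46 and 11.58 in Ezh2-null neutrophils (fitted difference 6.44, adjusted p = 5.48e-08; interaction 11.11, adjusted p = 9e-08). Muc13, a membrane mucin, fell from 16.38 and 16.90 to 14.73 and 15.08 in undifferentiated cells (-1.73) and was 3.29 higher in Ezh2-null neutrophils. The DNA repair genes Brca1 (-0.84 and 2.93) and Polq (-0.80 and 2.62), and Sgo1, a cohesin protector in mitosis (-0.98 and 2.04), had the same pattern of a small fall and then a rise. In the reverse direction stood Itgb2 (1.34 and -0.94), the ubiquitin ligase gene Peli2 (3.28 and -1.89) and Ltf, with a difference of -1.99 in neutrophils. Muc13, Brca1, Polq, Sgo1 and Peli2 were singled out after their values were seen, and Ltf and Clec7a, also among the 56, are described above. Markers of mast cells and basophils were called higher at 18 of 21 genes in Ezh2-null neutrophils (median 3.88), erythroid markers at 17 of 18 (median 5.57), cell cycle genes at 26 of 33 (median 2.40) and interferon-stimulated genes at 25 of 33 (median 2.30), with 0 lower in each of these lists. The secondary and gelatinase granule list was called lower at 17 of 31 genes (median -1.58) and monocyte and macrophage markers at 8 of 23 (median -1.32), with 0 higher in both. The part of these in the neutrophil values was not tested.

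**Figure D5:**
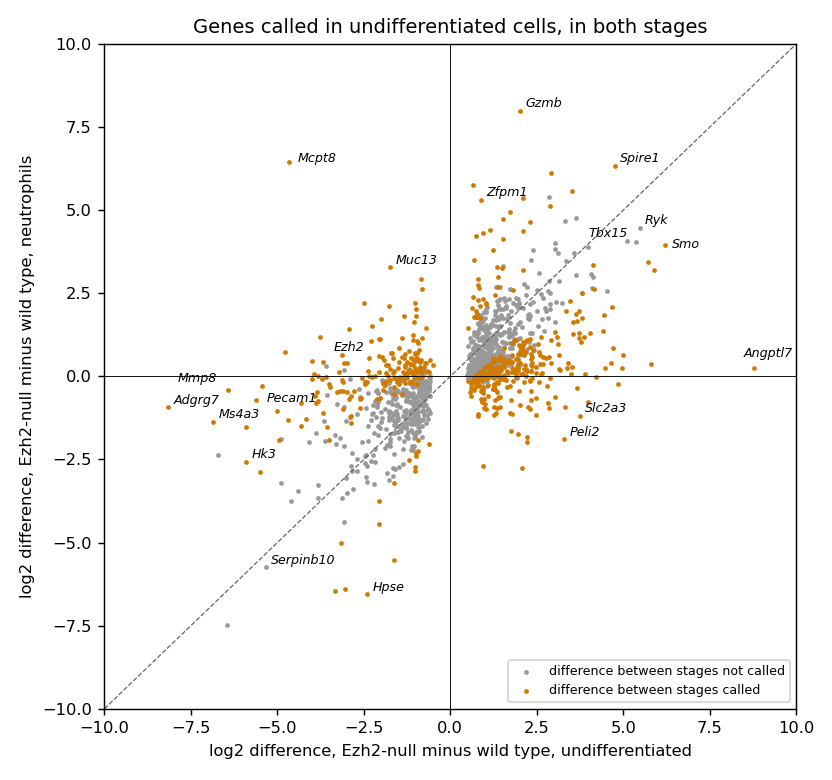
Ezh2-null minus wild-type log2 difference in undifferentiated cells (horizontal axis) and in neutrophils (vertical axis) for the 822 genes called higher and 535 called lower in undifferentiated cells; orange points are genes whose difference between stages was called and grey points the others, and the dashed line marks equal differences. Ryk and Tbx15 lie near the line, Angptl7 and Adgrg7 near the horizontal axis (0.24 and -0.93 in neutrophils, where both are under background), and Mcpt8 in the upper left (-4.67 and 6.44).

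No gene called after Ezh2 loss was called with GSK343. In wild-type neutrophils, against vehicle, limma called 1 cluster (0.00152%), and it was none of those called in undifferentiated cells. At an unadjusted p under 0.05, 53 of the 822 higher genes were also higher with GSK343 (6.45%, against 4.99% of all genes) and 12 of the 535 lower genes were lower (2.24%, against 1.64%). In the other direction, 4 of the 822 were lower with GSK343, against 1.64% of all genes. Of the 535 lower genes, 35 were higher with GSK343, against 4.99% of all genes. More of the 535 were thus higher with GSK343 than lower. The labels give 0.5 µM for 9 days, longer than the 6 days of differentiation, and the series text gives another dose. Only neutrophils were measured after the drug, so stage, dose and means of removing EZH2 activity cannot be told apart here.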

How the data were processed

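Total RNA of 12 samples was measured on GeneChip mouse transcriptome arrays, 1 colour. The authors deposited one processed table of log2 signals per transcript cluster, made with Affymetrix Expression Console and Transcriptome Analysis Console, per the submitters' processing notes. Their versions, the summarisation method and the build: not given in the sources used here. Samples were grouped by title. Of 72688 entries, 6732 controls were left out, and the rest were used without further normalization or a filter. Of the clusters, 31216 had 1 gene symbol, 1534 several and 33206 none, and 364 genes had several clusters.

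All 12 arrays entered one limma 3.58.1 fit in R 4.3.3 (lmFit and eBayes, no covariate, residual df 6, prior df 3.06), with Benjamini-Hochberg adjustment over all clusters. The number of arrays limits the precision. The fit was tested on simulated data.

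The named genes were Ezh2, the 20 largest called rises and falls with groups that did not overlap, up to 6 called genes per direction in each of 49 lists, and genes of printed promoters; others are given with values. Members and lists were chosen with earlier results of these data known. Alternatives were leaving out each array, fits on 4 or 8 arrays, a replicate block, quantile normalization, median centring, a variance trend, filters, and a shorter promoter window. Array numbers did not pair samples: the correlations of replicate differences between groups ran from -0.252 to 0.185.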

Additional observations from a re-analysis of the deposited data

Results flagged for a closer look

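The effect of Ezh2 loss differed between neutrophils and undifferentiated cells, by limma's test of the interaction at an adjusted p under 0.05, for 35 of the named genes. The values are the log2 effect in neutrophils less that in undifferentiated cells. Ezh2 itself gave 2.89. Named genes outside this set also passed and are not listed, such as Gzmb (5.99), whose rise was larger in neutrophils, Ptk7 (-3.41) and Tyrobp (3.33).

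Among the genes that rose in undifferentiated cells the value was -8.55 for Angptl7, -2.24 for Smo, -2.70 for Golm2, -5.41 for Cited1, -2.25 for Spats2, -4.35 for Slc35f2, -4.73 for Slc16a12 and -5.08 for Stfa2l1. It was -3.83 for Laptm4b, -2.59 for both Eng and Slc30a4, -4.25 for Clu, -4.21 for Gucy1a2, -3.05 for Ncam1 and -4.23 for Scara3. It was -4.20 for Ltf and -2.28 for Itgb2. Spire1, at 1.57, was the only one of these rises that was larger in neutrophils.

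Among the genes that fell in undifferentiated cells it was 7.24 for Adgrg7, 5.50 for Ms4a3, 6.03 for Mmp8, 4.41 for Clec5a, 3.34 for Hk3, 4.89 for Efna5, 2.62 for Sgms2 and 5.17 for Pecam1. It was 3.99 for Ppp1r14c, 3.04 for Olr1, 5.52 for Slc35d3, 3.40 for Cd300lb, 2.81 for Mrgpra2b, 3.71 for Clec7a and 3.88 for Ifih1. The call of Ifih1 in undifferentiated cells was lost without each of the 4 arrays in turn, with differences from -1.99 to -1.55. Mcpt8 had the largest value of the 35, at 11.11. Most of the genes were chosen for the size of their difference in undifferentiated cells, which also enters the interaction, so a smaller effect in neutrophils is in part a product of that choice. In wild-type neutrophils Adgrg7 (4.64 and 5.03) and Slc35d3 (4.76 and 4.95) were under background, so no fall could be seen there.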

How the results depend on the processing

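Counts depended on the arrays in the fit. On the 4 undifferentiated arrays alone 189 clusters were called higher and 162 lower. On the 8 arrays of both genotypes the counts were 609 higher, 452 lower, 1352 for the interaction and 462 called in the same direction in both stages (882 with all arrays). Leaving out 1 array gave 522 to 1617 higher, 440 to 1320 lower, 1511 to 3758 for the interaction, 460 to 1181 in both stages and 0 shared with GSK343. A 2-fold minimum left 705 higher and 543 in both stages. With array number as a replicate block, although the numbers did not pair samples, 997 were higher, 834 lower, 2694 for the interaction and 832 in both stages, and 1 was shared with GSK343. Quantile normalization gave 1142 higher and 835 lower, and median centring 1063 and 849. A promoter window of 250 bases gave median CpG ratios of 0.697 for genes called higher, 0.658 for those at background in wild type, 0.282 for all at background and 0.608 for genes called lower. Leaving out chromosome 17 and keeping only protein-coding promoters were chosen after seeing the data. Of 160 named genes, 58 kept their call under every alternative, 97 lost it on 4 arrays, 42 on 8 arrays and 8 under the block, with 0 reversed. The cause of these changes was not tested, other than the fewer arrays in each smaller fit. Signals near background limit the folds of genes that were silent in one genotype.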
